A study of Mus musculus and Homo sapiens with 12 samples.

Results

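The matrix metalloproteinases and their tissue inhibitors were followed in PFKFB4-knockout and wild-type cells of 2 breast cancer lines. Of the 54331 gene identifiers in the EMT6 table, 9 belong to this set: Mmp2, Mmp3, Mmp9, Mmp10, Mmp13, Mmp14, Timp1, Timp2 and Timp3. Of the 60233 in the MDA-MB-231 table, 10 do, namely the human counterparts of these genes and MMP1. The genes were chosen by name, with their levels and their knockout differences in these libraries already known. Their values are therefore given as a description, with no test and no p-value, and tests were kept for other genes of the same system. The values are transcript levels and do not measure protein or proteolytic activity.

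EMT6 cells derive from a mouse mammary carcinoma. MDA-MB-231 cells are human and derive from a breast adenocarcinoma. The groups were PFKFB4-knockout EMT6, wild-type EMT6, PFKFB4-knockout MDA-MB-231 and wild-type MDA-MB-231, with 3 libraries of poly(A) RNA in each and 12 in all, and every culture was kept in high-glucose medium with serum. PFKFB4 makes and breaks down fructose 2,6-bisphosphate, which regulates glycolysis. The knockout columns carry codes (A7 in EMT6, G2 in MDA-MB-231) that no label explains and were identified by elimination, since the remaining columns carry the wild-type name. The labels call the libraries of a group biological replicates, without saying whether these came from separate cultures. They also do not say how PFKFB4 was deleted or whether a knockout line is 1 clone. The error values therefore measure only the spread between these libraries.

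Matrix metalloproteinases (MMPs) are zinc enzymes that cleave collagen, laminin and other matrix proteins, and are made as inactive precursors. MMP1 and MMP13 are collagenases, MMP3 and MMP10 stromelysins with broad substrates, MMP2 and MMP9 gelatinases that degrade basement membrane collagen, and MMP14 a membrane-bound collagenase. The TIMPs are secreted proteins that block the active site of these enzymes, and TIMP2 also bridges MMP14 to the MMP2 precursor, so that MMP14 can activate MMP2 at the cell surface. In breast tumours these enzymes are made by tumour cells and by the surrounding stroma.

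Several mouse members share a place in the genome and a promoter element. Mmp13, Mmp3 and Mmp10 lie in a row of 10 Mmp genes on chromosome 9, which spans 427.1 kb from 7272514 to 7699585 on GRCm38. Many MMP promoters are known for a binding motif of AP-1, the dimer of FOS and JUN family proteins, close to the start site. The motif was searched as TGAGTCA and its reverse complement TGACTCA, which covers both strands, in RefSeq windows of 300 bases (250 before to 50 after the start; GRCm38.p6). The table has windows for 7 of the 9 mouse members (not Mmp2 or Mmp9), and those of Mmp13, Mmp3 and Mmp10 held the motif. Among all 32851 windows in the RefSeq table, 5.2% held it. The windows of the 3 clustered genes are shown because these genes had higher values in the knockout in all 3 cases, and that of Mmp14 because it was lower and holds no match; capitals mark the motif.
Mmp13, chr9:7272264-7272563, plus strand: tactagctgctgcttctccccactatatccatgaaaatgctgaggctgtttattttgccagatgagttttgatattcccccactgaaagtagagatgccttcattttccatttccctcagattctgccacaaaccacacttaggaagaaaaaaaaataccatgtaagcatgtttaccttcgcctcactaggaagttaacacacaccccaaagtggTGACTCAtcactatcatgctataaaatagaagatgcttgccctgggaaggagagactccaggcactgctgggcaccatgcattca
Mmp3, chr9:7445572-7445871, plus strand: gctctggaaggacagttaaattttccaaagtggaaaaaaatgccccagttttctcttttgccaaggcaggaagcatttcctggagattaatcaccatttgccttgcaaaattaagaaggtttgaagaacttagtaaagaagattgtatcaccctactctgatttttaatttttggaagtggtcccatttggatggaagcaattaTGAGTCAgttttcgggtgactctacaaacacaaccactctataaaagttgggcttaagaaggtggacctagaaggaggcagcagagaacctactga
Mmp10, chr9:7502092-7502391, plus strand: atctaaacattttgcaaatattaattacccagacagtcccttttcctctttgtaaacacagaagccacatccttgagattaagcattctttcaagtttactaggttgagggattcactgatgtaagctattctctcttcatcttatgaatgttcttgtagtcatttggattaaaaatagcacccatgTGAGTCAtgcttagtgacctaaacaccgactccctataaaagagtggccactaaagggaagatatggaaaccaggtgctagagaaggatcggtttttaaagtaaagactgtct
Mmp14, chr14:54431348-54431647, plus strand: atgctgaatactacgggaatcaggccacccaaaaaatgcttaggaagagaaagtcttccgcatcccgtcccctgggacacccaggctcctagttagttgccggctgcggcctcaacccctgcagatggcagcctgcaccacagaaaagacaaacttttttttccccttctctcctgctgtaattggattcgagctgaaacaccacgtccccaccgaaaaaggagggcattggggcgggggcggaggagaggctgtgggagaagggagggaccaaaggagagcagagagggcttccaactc
The motif began 35 bases before the start of Mmp13, 46 before that of Mmp3 and 63 before that of Mmp10. The windows of Timp1, Timp2 and Timp3 held no match either. Timp1 and Timp2 were higher in every knockout library, and the Timp3 groups overlapped in the deposited TPM. Whether the motif bears on these differences was not tested. The motif was also present 73 bases before the start of Mmp1a and 93 before that of Mmp1b, the mouse counterparts of human MMP1, whose transcripts were at or near 0 in EMT6. A match is a description of the letters and does not show that a factor binds there.

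The libraries were compared before the members were described. TPM, the share of transcripts after correction for gene length, summed to 1000000 in every library, so sequencing depth is unknown and no counting error can be attached to low values. At least 1 TPM was reached by 11871 to 12015 genes in the EMT6 knockout libraries and 12350 to 12426 in EMT6 wild type, and by 13038 to 13338 in the MDA-MB-231 knockout libraries and 13423 to 13593 in MDA-MB-231 wild type. Library pairs differed, as the SD over genes of their log2(TPM + 1) difference, by 0.421 to 0.443 within EMT6 groups and 0.411 to 0.516 within MDA-MB-231 groups, against 0.62 to 0.709 and 0.613 to 0.677 between knockout and wild type of the same line. The Pfkfb4 transcript stood at 6.96, 6.87 and 8.24 TPM in EMT6 knockout libraries, against 10.2, 10.5 and 10.4 TPM in wild type, so it was lower but present (log2 fold change -0.45 ± 0.08, SE; limma adjusted p = 0.00487; -0.22 with adjusted p = 0.0697 under median-ratio scaling, which sets each library by the median ratio of its genes to their mean over libraries). The files do not name human genes, so human PFKFB4 and the cell type markers of MDA-MB-231 were not analysed here. In EMT6, Krt8 (523 to 547 TPM in knockout, 459 to 503 TPM in wild type) and Vim (3228 to 3348 TPM in knockout, 2619 to 2823 TPM in wild type) were abundant, whereas the epithelial adhesion genes Epcam and Cdh1 did not exceed 0.288 TPM in any library. Other keratins were lower in the knockout, with Krt14 at 3.74 to 4.25 TPM in knockout and 35.6 to 37.9 TPM in wild type. The 5 epithelial markers summed to 542 to 568 TPM in knockout and 528 to 582 TPM in wild type. The 3 mesenchymal markers summed to 3645 to 3797 TPM in knockout and 3225 to 3468 TPM in wild type, most of it Vim. Fn1, also on the mesenchymal list, went the other way, at 418 to 486 TPM in knockout and 598 to 645 TPM in wild type. The remaining mesenchymal marker, Cdh2, did not exceed 0.0452 TPM in any library. The 5 leukocyte markers summed to 0.00657 to 0.263 TPM in knockout libraries and were at 0 in wild type, with Adgre1 at 0 in every library. The 3 endothelial markers summed to 0.0142 to 0.0374 TPM in knockout libraries and 0.0493 to 0.0781 TPM in wild type, with Kdr at 0 in every library. The part of these markers in the results was not tested.

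The largest difference of the members was that of human MMP1 (ENSG00000196611), the interstitial collagenase. MMP1 stood at 0.101, 0.0802 and 0.321 TPM in the MDA-MB-231 knockout libraries, against 140, 155 and 130 TPM in the wild-type libraries. It was thus among the abundant transcripts of wild-type cells, at place 955 by mean level of 32853 genes above 0, and near the lower end of detection in each knockout library. Its mean was 0.167 ± 0.134 TPM in the knockout and 142 ± 12.7 TPM in wild type (SD, n = 3 each), so the knockout held 0.118% of the wild-type level. On the log2(TPM + 1) scale, which understates changes of low genes, the difference was -6.94 ± 0.12 (SE). Among the 15299 genes of this line that reached 0.5 TPM in 3 or more libraries, it ranked 2 from the lowest. It entered that set through its wild-type libraries alone, so the rank is a description and not a test. In bulk RNA, fewer cells that express a gene and less of it per cell cannot be told apart.

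The other collagenase, MMP13 (ENSG00000137745), was barely detected in MDA-MB-231. It was listed at 0, 0 and 0.0121 TPM in the knockout libraries, against 0.0648, 0.0625 and 0.0493 TPM in wild type. Mouse Mmp13 (chromosome 9, 7272514 to 7283331 on GRCm38) was also low in EMT6, at 0.383, 0.542 and 0.417 TPM in the knockout libraries, against 0.158, 0.157 and 0.169 TPM in wild type. The groups did not overlap in either line, and the direction was opposite: log2(TPM + 1) differed by 0.32 ± 0.05 in EMT6 and by -0.08 ± 0.01 in MDA-MB-231 (SE). The mouse counterparts of MMP1 gave no signal to follow, as Mmp1b was listed at 0 in every EMT6 library and Mmp1a did not exceed 0.0108 TPM.

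Of the stromelysins, MMP3 (ENSG00000149968) was measurable in wild-type MDA-MB-231. It stood at 0.110, 0.113 and 0.588 TPM in the knockout libraries, against 1.58, 1.32 and 2.05 TPM in wild type. All knockout libraries were below all wild-type libraries, and knockout replicate 3 was well above the other knockout libraries. The difference was -1.07 ± 0.21 on the log2(TPM + 1) scale (SE, n = 3 each). Mouse Mmp3 (chromosome 9, 7445822 to 7455975), in the same row of genes as Mmp13, differed in the other direction in EMT6. It stood at 0.207, 0.466 and 0.326 TPM in the knockout libraries, against 0.144, 0.0122 and 0.0926 TPM in wild type, a difference of 0.30 ± 0.10. Here too the groups did not overlap, but every value was under 0.5 TPM.

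Mmp10 (chromosome 9, 7502352 to 7510240) was lower still in EMT6, at 0.0848, 0.103 and 0.165 TPM in the knockout libraries, against 0.0543, 0.0645 and 0.0418 TPM in wild type (difference 0.08 ± 0.03, and 0.054 without knockout replicate 3). In MDA-MB-231, MMP10 (ENSG00000166670) was listed at 0 in all 3 knockout libraries, against 0.0176, 0 and 0.0268 TPM in wild type, and the groups overlapped at 0. Among the 7 other genes of the chromosome 9 row, none exceeded 0.22 TPM in any EMT6 library. Only Mmp12, the macrophage elastase, was detected in every library (0.22, 0.168 and 0.09 TPM in knockout, 0.0628, 0.0551 and 0.0619 TPM in wild type), and its groups did not overlap, with the knockout higher. Mmp12 is not one of the chosen members, was named after its values were seen, and like Mmp13, Mmp3 and Mmp10 fell below the level needed for a test.

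Of the gelatinases, MMP2 was abundant in EMT6 and near 0 in MDA-MB-231. Mouse Mmp2 (chromosome 8, 92827291 to 92853420) stood at 46.8, 46.8 and 49.3 TPM in EMT6 knockout libraries, against 24.3, 25.4 and 25.2 TPM in wild type. Each knockout library held nearly the same level, well above every wild-type library, and the mean was 47.6 ± 1.46 TPM in the knockout and 25.0 ± 0.597 TPM in wild type (SD, n = 3 each). The log2(TPM + 1) difference was 0.91 ± 0.03 (SE), rank 302 from the highest among 13499 tested genes, and it was 1.15 under median-ratio scaling and 1.07 once each library's trend on exon length was removed. In MDA-MB-231 the same gene (ENSG00000087245) was listed at 0 in 4 of 6 libraries, with 0.00865 TPM in knockout replicate 3 and 0.116 TPM in wild-type replicate 3. That difference (-0.05 ± 0.05) rested on wild-type replicate 3, without which it was 0.0041.

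Mmp9 (chromosome 2, 164940780 to 164955850), the other gelatinase, was low in both lines and lower in both knockouts. It stood at 0.0305, 0.0173 and 0.00691 TPM in EMT6 knockout libraries, against 0.337, 0.182 and 0.340 TPM in wild type, a log2(TPM + 1) difference of -0.33 ± 0.06. MMP9 (ENSG00000100985) was listed at 0, 0 and 0.00717 TPM in MDA-MB-231 knockout libraries, against 0.294, 0.190 and 0.456 TPM in wild type (-0.38 ± 0.08). No library reached 0.5 TPM, and the groups did not overlap in either line.

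Mmp14 (chromosome 14, 54431612 to 54445364), the membrane-type enzyme that activates the MMP2 precursor, was the abundant member that was lower in both knockouts. It stood at 33.3, 33.8 and 31.4 TPM in EMT6 knockout libraries, against 53.1, 56.2 and 60.0 TPM in wild type. MMP14 (ENSG00000157227) stood at 34.3, 49.9 and 46.8 TPM in MDA-MB-231 knockout libraries, against 118, 122 and 95.3 TPM in wild type. The groups lay clearly apart in each line, with knockout replicate 1 the lowest in MDA-MB-231. The knockout mean was 58.2% of wild type in EMT6 and 39.1% in MDA-MB-231, and the log2(TPM + 1) differences were -0.76 ± 0.06 and -1.34 ± 0.20 (SE, n = 3 each). In EMT6 the difference was -0.52 under median-ratio scaling and -0.45 with the exon length trend removed.

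**Figure D1:**
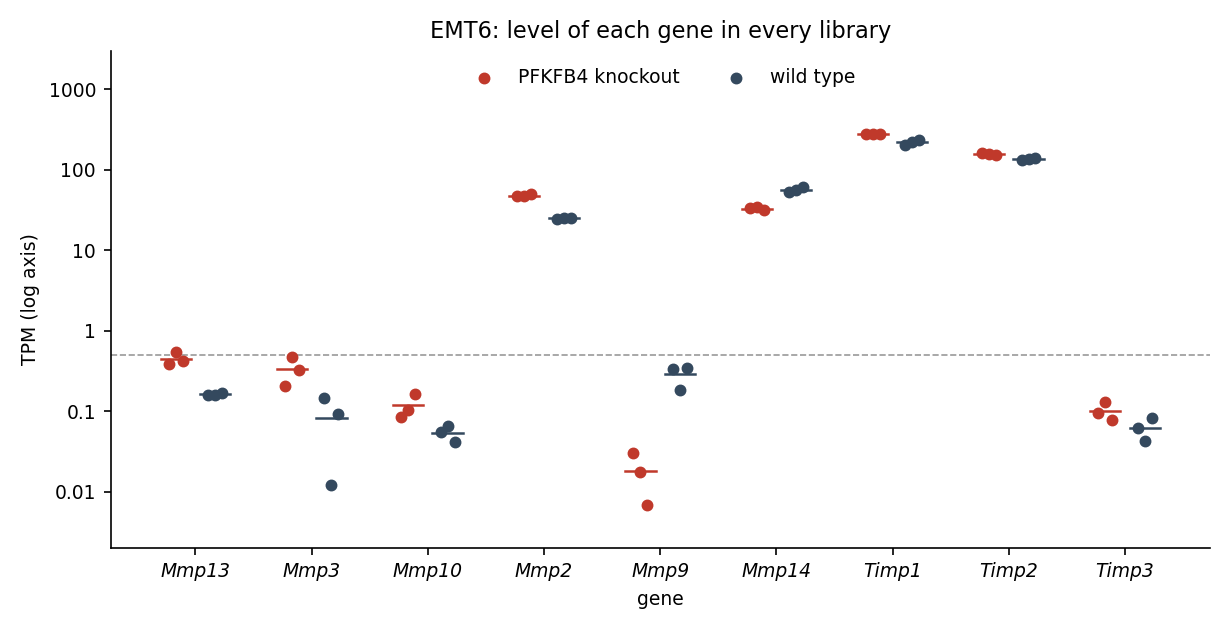
TPM of each mouse gene in EMT6 on a log axis, with 1 point per library, knockout (red) left of wild type (dark), bars at the mean and a dashed line at 0.5 TPM. Mmp2, Mmp14, Timp1 and Timp2 stand above 20 TPM in every library and the other 5 genes at or near the dashed line or below it.

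TIMP1 was the most abundant member in every group of both lines. Timp1 (chromosome X, 20870166 to 20874735), a broad MMP inhibitor, stood at 281, 276 and 281 TPM in EMT6 knockout libraries, against 201, 220 and 232 TPM in wild type. TIMP1 (ENSG00000102265) stood at 253, 226 and 200 TPM in MDA-MB-231 knockout libraries, against 319, 275 and 361 TPM in wild type. The groups did not overlap in either table, and the knockout was higher in EMT6 (0.36 ± 0.06 on the log2(TPM + 1) scale) and lower in MDA-MB-231 (-0.49 ± 0.15). In EMT6 the difference was 0.61 under median-ratio scaling and 0.14 with the exon length trend removed. In MDA-MB-231 it was -0.43 under median-ratio scaling, where knockout replicate 1 (TIMP1 at 275 scaled TPM) reached above wild-type replicate 2 (271 scaled TPM).

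Timp2 (chromosome 11, 118301069 to 118355740), the inhibitor that also links MMP14 to the MMP2 precursor, stood at 159, 158 and 154 TPM in EMT6 knockout libraries, against 132, 135 and 139 TPM in wild type. TIMP2 (ENSG00000035862) stood at 39.8, 46.2 and 43.8 TPM in MDA-MB-231 knockout libraries, against 57.3, 49.8 and 53.4 TPM in wild type. As for Timp1, the knockout libraries lay above wild type in EMT6 and below it in MDA-MB-231. The differences were small, 0.21 ± 0.03 in EMT6 and -0.30 ± 0.08 in MDA-MB-231 on the log2(TPM + 1) scale. The EMT6 value was 0.45 under median-ratio scaling and 0.41 with the exon length trend removed.

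TIMP3 (ENSG00000100234), which binds to the matrix and also inhibits ADAM proteases, had the second largest difference among the human members on the log2(TPM + 1) scale. It stood at 1.43, 1.44 and 1.804 TPM in MDA-MB-231 knockout libraries, against 28.8, 25.0 and 28.6 TPM in wild type. The knockout mean of 1.56 ± 0.212 TPM was 5.67% of the wild-type mean of 27.5 ± 2.12 TPM (SD, n = 3 each), and the log2(TPM + 1) difference of -3.48 ± 0.09 ranked 14 from the lowest of 15299 genes. Mouse Timp3 (chromosome 10, 86300372 to 86349506) was hardly detected in EMT6, with 0.0958, 0.128 and 0.0768 TPM in knockout libraries and 0.0608, 0.0425 and 0.0827 TPM in wild type. These groups overlapped in the deposited TPM, and under median-ratio scaling they did not.

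**Figure D2:**
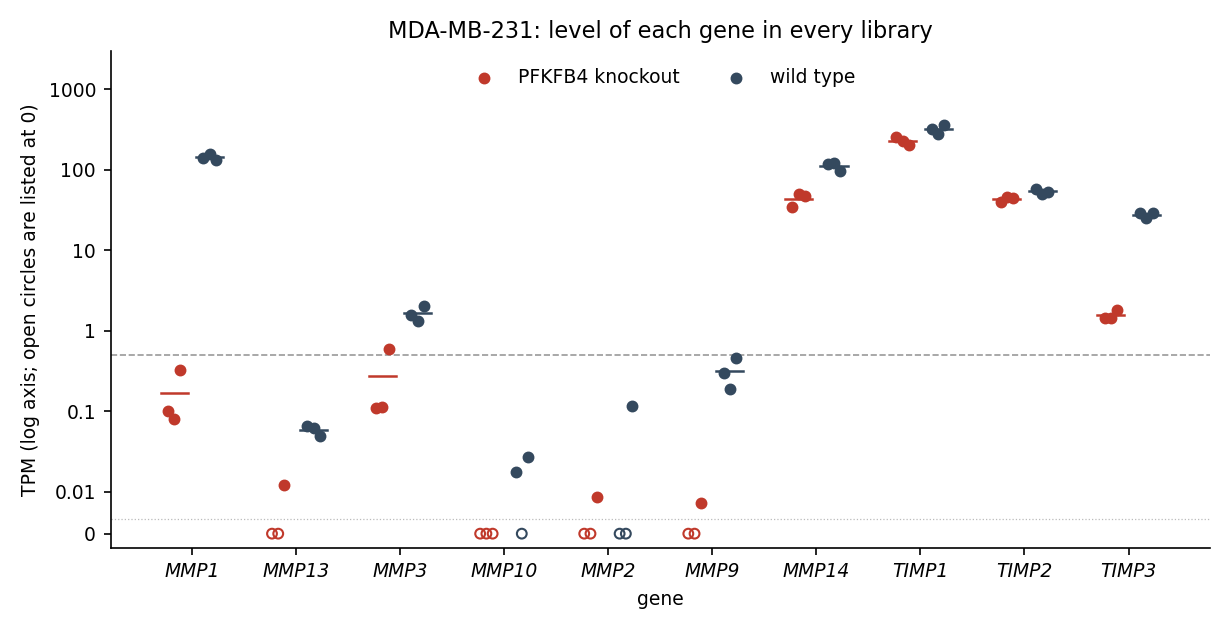
TPM of each human gene in MDA-MB-231 on a log axis, with 1 point per library, knockout (red) left of wild type (dark), bars at the mean where no library is at 0, open circles for libraries listed at 0 and a dashed line at 0.5 TPM. MMP1 and TIMP3 show the widest gaps between the groups among the genes above 1 TPM in wild type.

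Over the whole set, 6 of 9 members in EMT6 had every knockout library above every wild-type library, and 2 had every knockout library below. Of all 28137 EMT6 genes above 0 in at least 1 library, 11.2% had every knockout library above wild type and 29.2% below. In MDA-MB-231, 8 of 10 members had every knockout library below wild type and 0 had every one above, whereas 15.7% of the 32853 human genes above 0 lay below and 10.4% above. Because the members were chosen with these differences known, nothing is read from these shares. The median log2(TPM + 1) difference over the members was 0.21 in EMT6 and -0.44 in MDA-MB-231, against -0.02 and -0.01 over all genes above 0. Over the genes that reached 0.5 TPM in at least 3 libraries it was -0.21 in EMT6 and -0.04 in MDA-MB-231. Only 4 EMT6 members (Mmp2, Mmp14, Timp1 and Timp2) and 6 MDA-MB-231 members (MMP1, MMP3, MMP14, TIMP1, TIMP2 and TIMP3) reached 0.5 TPM in at least 3 libraries.

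**Figure D3:**
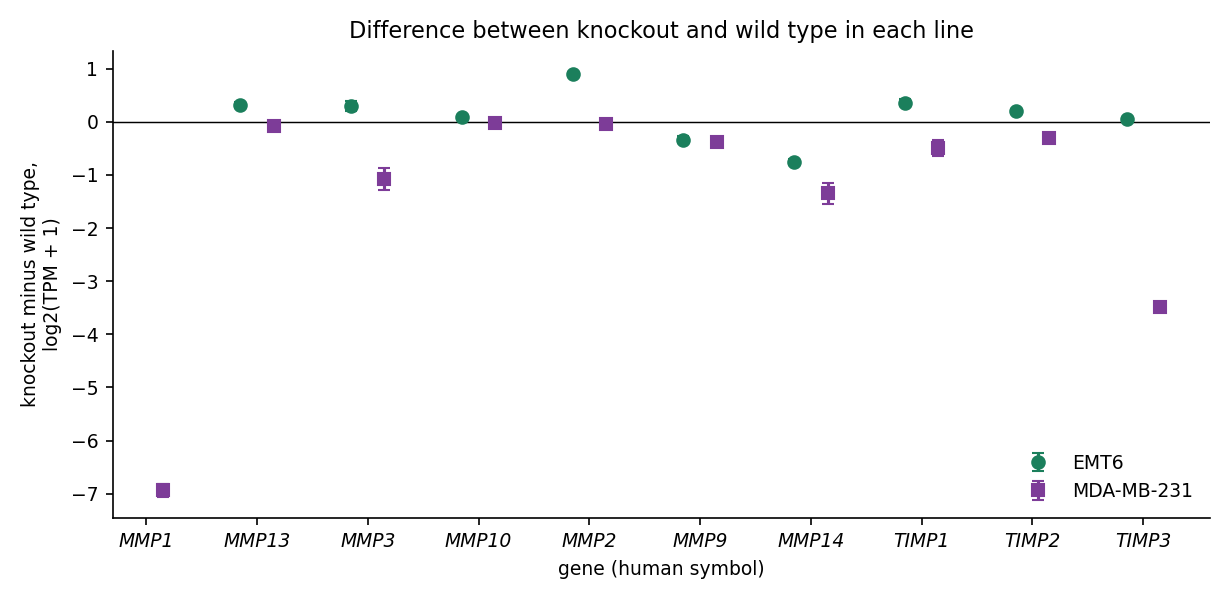
Knockout minus wild type on the log2(TPM + 1) scale for each gene, with EMT6 as circles and MDA-MB-231 as squares and bars of 1 SE (n = 3 libraries per group). MMP14 and MMP9 lie below 0 in both lines, whereas TIMP1, TIMP2, MMP3 and MMP13 lie above 0 in EMT6 and below 0 in MDA-MB-231. MMP2, MMP10 and TIMP3 have these opposite signs too, but their groups overlapped in 1 of the lines in the deposited TPM.

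The order of the members changed with the knockout in each line. In EMT6 knockout cells the order by mean TPM was Timp1, Timp2, Mmp2, Mmp14, and then the genes under 1 TPM, whereas in wild type Mmp14 stood above Mmp2. The library ranges of neighbours among these 4 genes did not overlap in either group. Among the low genes, Mmp13 and Mmp3 overlapped in the knockout, as did Mmp10 and Timp3, and Mmp3, Timp3 and Mmp10 overlapped in wild type. In MDA-MB-231 knockout cells TIMP1 was followed by MMP14 and TIMP2, whose ranges overlapped (43.7 ± 8.26 and 43.3 ± 3.25 TPM), then TIMP3, and then MMP3 and MMP1, whose ranges also overlapped. In wild-type MDA-MB-231 the order was TIMP1, MMP1, MMP14, TIMP2, TIMP3 and MMP3, with no overlap between neighbours.

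A ratio of 2 genes within a library does not depend on how the library was scaled. The ratio of Mmp14 to Timp2 TPM was 0.210, 0.215 and 0.205 in EMT6 knockout libraries, against 0.401, 0.416 and 0.431 in wild type. The ratio of MMP14 to TIMP2 TPM was 0.862, 1.08 and 1.07 in MDA-MB-231 knockout libraries, against 2.05, 2.45 and 1.78 in wild type. No knockout library reached a wild-type value in either line. The ratio of Mmp2 to Timp2 was higher in EMT6 knockout, at 0.304 ± 0.0147 in the knockout and 0.184 ± 0.00351 in wild type (SD, n = 3 each).

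Summed over the members, the 6 Mmp genes held 81.4 ± 0.563 TPM in EMT6 knockout and 82.0 ± 3.91 TPM in EMT6 wild type (SD, n = 3 each). This is not a sum over all expressed Mmp genes. It leaves out 3 further Mmp genes past the filter, each with a lower mean in the knockout. Mmp11 averaged 11.9 TPM in knockout and 16.1 TPM in wild type, Mmp28 0.83 and 2.33 TPM, and Mmp19 1.67 and 1.79 TPM. In the deposited TPM Mmp2 was higher and Mmp14 lower in the knockout, and their sum differed by less than the spread of the libraries. Under median-ratio scaling Mmp2 stood at 51.4, 49.6 and 53.9 scaled TPM in knockout libraries, against 21.9, 23.5 and 22.9 in wild type. Mmp14 then stood at 36.6, 35.9 and 34.3 in knockout libraries, against 47.9, 52.1 and 54.5 in wild type. On that scaling their sum was higher in every knockout library than in any wild-type library. In the deposited TPM the 3 Timp genes held 436 ± 3.26 TPM in the knockout and 353 ± 19.1 TPM in wild type. In MDA-MB-231 the 7 MMP genes held 44.1 ± 8.40 TPM in the knockout and 256 ± 25.6 TPM in wild type, and the 3 TIMP genes 271 ± 24.3 TPM in the knockout and 399.7 ± 46.7 TPM in wild type. Over the members alone, TIMP transcripts exceeded MMP transcripts 6.37-fold in MDA-MB-231 knockout and 1.59-fold in wild type. In EMT6 the excess was 5.36-fold in knockout and 4.31-fold in wild type. Other human MMP genes were not identified and are left out of the human sums. A sum over transcripts says nothing of the amount of active enzyme.

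**Figure D4:**
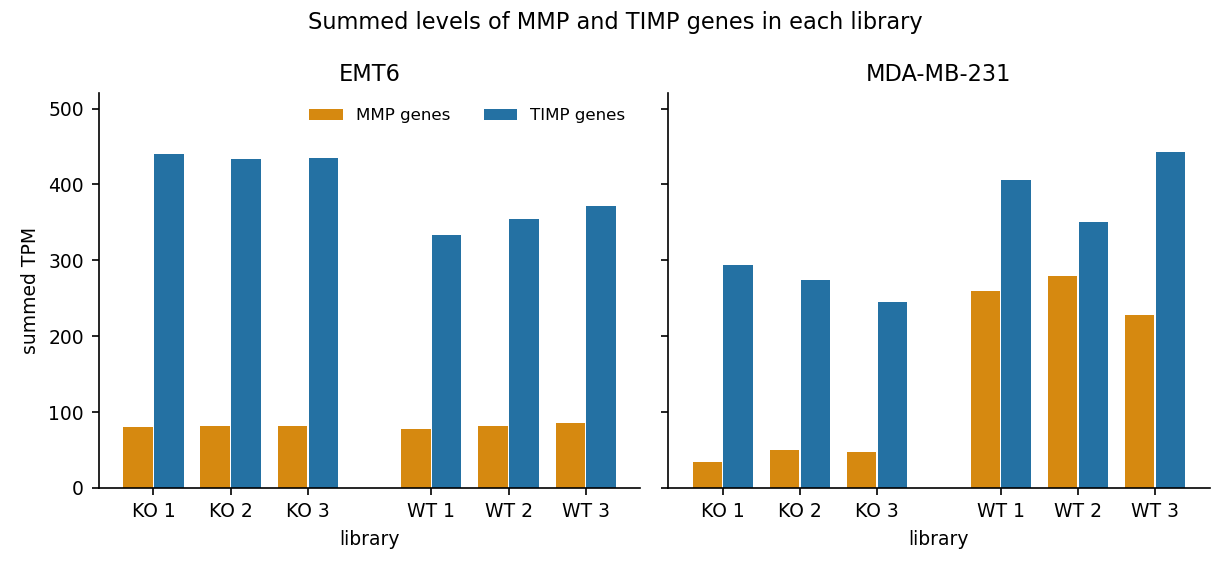
Summed TPM of the member MMP genes (orange) and of the member TIMP genes (blue) in each library. Knockout libraries stand left of wild type in each line. In the deposited TPM, the MMP sum is lower in each MDA-MB-231 knockout library (34.5 to 50.1 TPM) than in wild type (228 to 279 TPM). It lies at 78.1 to 85.9 TPM in all EMT6 libraries.

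Mmp2 had the largest difference of the mouse members on the log2(TPM + 1) scale (0.91), though not with a pseudocount of 0.1 (0.93, against -1.68 for Mmp9, 1.27 for Mmp3 and 1.05 for Mmp13). The genes whose values ran most like it over the 6 EMT6 libraries were Cdc34 (Pearson r = 0.9999), a ubiquitin-conjugating enzyme, Apol9a (r = 0.999) and Hsbp1 (r = 0.999), a binding partner of heat shock factor. They averaged 289, 128 and 93.2 TPM in the knockout and 176, 31.6 and 71.0 TPM in wild type. With only 6 libraries in 2 groups such values are common, and 771 of 8731 genes compared reached an r of 0.95. The human table offers no names for such a search.

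Other genes of the system were tested in EMT6 with limma over all 13499 genes that had at least 0.5 TPM in at least 3 libraries. Of 107 listed genes, 60 were tested, and 8 rose and 42 fell in the knockout (adjusted p under 0.05). Among all tested genes 14.5% rose and 42.3% fell, so falls were frequent throughout this line. The median log2 fold change was -0.45 over the listed genes and -0.21 over all tested genes. Median-ratio scaling shifted the log2 fold changes of tested genes by a median of 0.22 and gave 13 listed genes higher and 29 lower, with 3644 and 3349 over all tested genes. With the exon length trend removed, 11 were higher and 27 lower, with 3128 and 3594 over all tested genes. The 5 list medians lay between -0.37 and -0.17 under median-ratio scaling, against -0.007 over all tested genes, and between -0.31 and -0.0057 with the exon length trend removed, against -0.043. Without knockout replicate 1 or wild-type replicate 2, 4 rose, and without knockout replicate 2 or wild-type replicate 1, 5 rose. These lists were drawn up with earlier results of these data known.

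Few other MMPs were expressed in EMT6. Of 18 further genes (17 Mmp genes and Timp4), 3 passed the filter, of which 2 fell and 0 rose, with a median of -0.41. Mmp28, the epilysin, fell to 0.904, 0.896 and 0.691 TPM in knockout libraries, against 2.15, 2.48 and 2.38 TPM in wild type (log2 fold change -0.87 ± 0.08, SE; limma adjusted p = 0.000628). Mmp11, stromelysin-3, stood at 11.9 ± 0.224 TPM in the knockout and 16.1 ± 2.05 TPM in wild type (-0.41 ± 0.09; adjusted p = 0.0116), and was not called under median-ratio scaling (-0.17, adjusted p = 0.162). Mmp19 had 1.67 TPM in the knockout and 1.79 TPM in wild type and was not called.

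Of the related ADAM and ADAMTS proteases, 9 of 11 tested genes fell and 0 rose (median -0.52). Under median-ratio scaling 7 were lower and 1 higher, and with the exon length trend removed 6 and 2. Adam17, the sheddase of TNF and of EGF receptor ligands, fell to 12.5, 14.9 and 12.1 TPM in knockout libraries, against 31.6, 28.1 and 33.4 TPM in wild type (-1.18 ± 0.10, SE; limma adjusted p = 0.00049). Adamts4, an aggrecanase, averaged 1.79 TPM in the knockout and 4.21 TPM in wild type (-0.90, adjusted p = 0.000353). Adamts14, which trims procollagen, averaged 0.725 TPM in the knockout and 2.098 TPM in wild type (-0.84, adjusted p = 0.000339; -0.56 with the exon length trend removed).

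Among genes that activate, restrain or clear MMPs, 3 of 16 tested rose and 11 fell (median -0.44). Under median-ratio scaling 5 were higher and 6 lower, and with the exon length trend removed 4 and 6. Both plasminogen activators fell, and plasmin is a known activator of MMP precursors. Plau, urokinase, stood at 20.1, 22.4 and 19.4 TPM in knockout libraries, against 40.2, 42.6 and 43.8 TPM in wild type (-1.001 ± 0.07, SE; limma adjusted p = 0.000259), and Plat averaged 15.04 TPM in the knockout and 29.2 TPM in wild type (-0.91, adjusted p = 0.000264). The chains of the alpha v beta 3 integrin, a docking site for MMP2, moved apart. Itgb3 fell to 0.403 ± 0.0123 TPM in the knockout, against 5.40 ± 0.409 TPM in wild type (-2.19, adjusted p = 3.24e-05). It passed the filter through its wild-type libraries alone, and with no filter its limma adjusted p was 0.000349. Itgav rose to 44.3 ± 3.14 TPM in the knockout, against 37.3 ± 0.699 TPM in wild type (0.24, adjusted p = 0.0172). The lysosomal protease Ctsl rose (601 ± 12.2 TPM in knockout, 464 ± 5.85 TPM in wild type; 0.37, adjusted p = 0.000501), as did Bsg, a surface inducer of MMP expression (259 ± 8.57 and 226 ± 8.43 TPM in the same order; 0.20, adjusted p = 0.0117). Itgav lost its call without knockout replicate 1 (0.20, adjusted p = 0.0546), knockout replicate 2 (0.23, 0.0533) or wild-type replicate 2 (0.23, 0.0559). With the exon length trend removed Plat stood at -0.59, Ctsl at 0.70 and Itgav at 0.67, and under median-ratio scaling Ctsl stood at 0.62, Itgav at 0.48 and Bsg at 0.44.

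Transcription factors of the AP-1 and ETS families act on many MMP promoters, and AP-1 binds the motif shown above. Of 17 tested in a list of these families and Runx2, which belongs to neither, 2 rose and 11 fell (median -0.42). Under median-ratio scaling 4 were higher and 7 lower, and with the exon length trend removed 3 and 7. Runx2 was among those that fell (-0.70, limma adjusted p = 0.0136), but was not called with the exon length trend removed (-0.31, adjusted p = 0.118). Atf3, a stress-induced factor that can pair with JUN proteins, rose to 7.32, 8.43 and 6.41 TPM in knockout libraries, against 1.38, 1.14 and 1.88 TPM in wild type (1.77 ± 0.14, SE; limma adjusted p = 0.000413). Fosl2, a FOS family member, fell to 11.5 ± 0.538 TPM in the knockout, against 20.5 ± 1.46 TPM in wild type (-0.79, adjusted p = 0.000536). Of the ETS factors, Etv4 (-1.07, adjusted p = 0.000268) and Etv5 (-0.48, adjusted p = 0.00145) fell. Junb rose slightly (70.2 ± 3.17 TPM in knockout, 61.9 ± 1.59 TPM in wild type; 0.18, adjusted p = 0.0215), and lost its call without knockout replicate 1 (adjusted p = 0.0747), knockout replicate 2 (0.0661), wild-type replicate 1 (0.0573) or wild-type replicate 2 (0.0579), at log2 fold changes of 0.16 to 0.18. With the exon length trend removed Fosl2 stood at -0.37 and Etv5 at -0.26, and under median-ratio scaling Etv5 stood at -0.32 and Junb at 0.42. Whether any of these factors bears on the Mmp transcripts was not tested.

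Matrix proteins that MMPs cleave moved in both directions, as 3 of 13 tested genes rose and 9 fell (median -0.45). After median-ratio scaling 3 were higher and 8 lower (median -0.22). Removal of the exon length trend gave 2 higher and 6 lower, with a median of -0.0057 against -0.043 over all tested genes. Fibrillar collagens, substrates of the collagenases and of Mmp14, were among those that fell. Col3a1 had 0.0217 ± 0.0252 TPM in the knockout and 17.7 ± 2.28 TPM in wild type (-4.19 ± 0.10, SE; limma adjusted p = 1.26e-05), Col1a1 52.4 ± 3.76 and 200.1 ± 1.53 TPM in the same order (-1.92, adjusted p = 2.05e-05), and Col1a2 171 ± 0.821 and 303 ± 7.32 TPM (-0.82, adjusted p = 6.04e-05; -0.37 with the exon length trend removed). Decorin, a small proteoglycan that binds collagen, rose, with Dcn at 2.52 ± 0.189 TPM in the knockout and 0.412 ± 0.057 TPM in wild type (1.32, adjusted p = 0.000156). Col3a1 passed the filter through its wild-type libraries alone, and Dcn through its knockout libraries alone. With no filter the limma adjusted p was 0.00013 for Col3a1 and 0.000956 for Dcn. Dcn was also listed as a fibroblast marker, and the 4 such markers (Pdgfra, Pdgfrb, Dcn and Lum) did not move together. Pdgfra was lower in the knockout (2.03 to 2.34 TPM, against 4.26 to 5.51 TPM in wild type). Pdgfrb was lower too (0.900 to 0.952 TPM, against 1.19 to 1.27 TPM in wild type), and Lum was at 0 in every library. Their sum of 5.59 to 5.65 TPM in knockout and 5.98 to 7.18 TPM in wild type hides these opposite directions. The part of these markers in these results was not tested. Spp1, osteopontin, also rose (0.19, adjusted p = 0.0269). It lost its call without knockout replicate 1 or 2 or wild-type replicate 1, 2 or 3 (0.16 to 0.20, adjusted p = 0.0578 to 0.0866) and with the exon length trend removed (0.12, adjusted p = 0.157), and stood at 0.44 under median-ratio scaling.

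**Figure D5:**
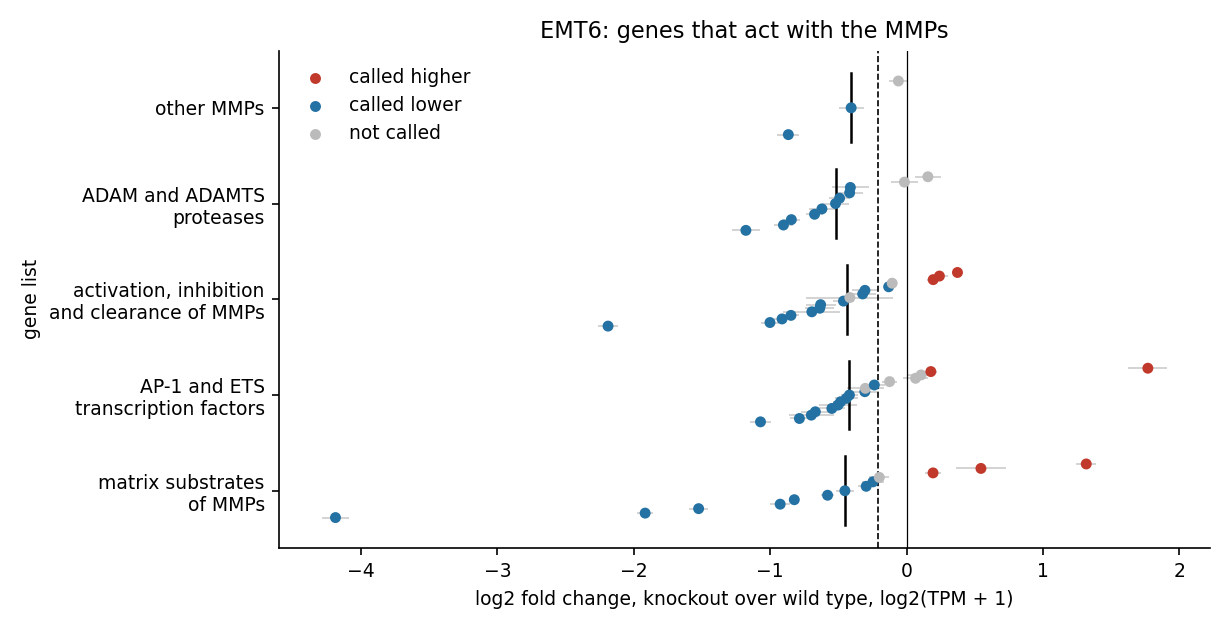
Log2 fold change (knockout over wild type, log2(TPM + 1) scale, bars of 1 SE) of the 60 tested EMT6 genes in 5 lists, red where called higher, blue where called lower and grey where not called. Short black lines mark each list's median and the dashed line the median of all tested genes (-0.21), and each of the 5 list medians lies to its left in the deposited TPM, whereas that of the matrix substrates (-0.0057) lay above the median of all tested genes (-0.043) with the exon length trend removed.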

How the data were processed

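The authors deposited 1 table per line with TPM for 6 libraries; no header names the unit, which was taken from columns that each sum to 1000000. CASAVA 1.8.2, TopHat2 2.1.1, Subread 1.6.4 and featureCounts are named in the submitters' processing notes, as are GRCh38.p7 and mm10. The sources used here do not give a strand setting or annotation. Mouse names and positions came from GENCODE M21 (GRCm38, the assembly of mm10), which named 54097 of 54331 identifiers. Human members were matched by Ensembl identifier, and other human genes have no name in the tables used, so the planned human lists were not analysed here.

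Member differences are group means of log2(TPM + 1), with SE from the 3 libraries per group. Other genes were tested with limma 3.58.1 in R 4.3.3 (mean-variance trend, no covariate) on genes with at least 0.5 TPM in at least 3 of 6 libraries, with Benjamini-Hochberg adjustment over all genes tested and calls at 0.05. Named list genes were chosen by rule: in each list, up to 3 that rose and 3 that fell, by smallest adjusted p, among called genes whose higher group averaged 1 TPM or more; genes most like Mmp2 were the 3 with the highest Pearson r among genes averaging at least 5 TPM. A gene that the rule chose is not reported here. Named outside this rule are Mmp12, Mmp19, Runx2, other genes of the chromosome 9 row, Pfkfb4 and the markers. Members and lists were chosen with earlier results of these data known. Alternatives were median-ratio scaling, no filter or 1 TPM, a pseudocount of 0.1, no trend, a replicate block, a 2-fold minimum, leaving out each library, and, added after seeing the data, removal of the exon length trend (lowess on protein-coding genes) and omission of the 10 most abundant genes.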

Additional observations from a re-analysis of the deposited data

Results flagged for a closer look

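In 4 genes every knockout library lay above wild type in EMT6 and below it in MDA-MB-231 in the deposited TPM. Under median-ratio scaling the TIMP1 groups overlapped in MDA-MB-231. The genes were chosen with these differences known, and the share of all genes with such opposite directions was not computed, so nothing is read from the count. The log2(TPM + 1) differences were 0.36 for Timp1 in EMT6 and -0.49 for TIMP1 in MDA-MB-231, 0.21 for Timp2 and -0.30 for TIMP2, 0.30 for Mmp3 and -1.07 for MMP3, and 0.32 for Mmp13 and -0.077 for MMP13. The difference between the lines was not tested, since the tables come from different species and were normalized separately. Mmp3, Mmp13 and MMP13 did not exceed 0.542 TPM in any library.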

How the results depend on the processing

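The number of EMT6 listed genes called higher was 8. It was 13 under median-ratio scaling, 5 with a replicate block and 2 with a 2-fold minimum, and 4 to 8 when 1 library was left out. The number called lower was 42. It was 27 with the exon length trend removed, 7 with a 2-fold minimum and 35 to 39 when 1 library was left out. Under the other alternatives both counts kept within 1.5 times their values. The 2-fold minimum was applied to the counts only and not to single genes. Of the 22 list genes that the naming rule chose, 16 kept their call under every other alternative. Besides the losses given above, Bsg lost its call with the replicate block (limma adjusted p = 0.0521) and Junb with the block (0.0698). Spp1 lost its call with the block (0.0551) and with no filter (0.0759). Same-numbered libraries did not deviate together (the 3 correlations of their deviations ranged from -0.017 to 0.073 for EMT6 libraries, and from -0.127 to 0.114 for MDA-MB-231 libraries), so the numbers were not taken as pairs.

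Counts of members whose groups did not overlap kept within 1.5 times with another scaling or 1 library left out, where 6 to 7 lay above and 2 below in EMT6 and 0 above and 7 to 9 below in MDA-MB-231. Restricting EMT6 to members past the 0.5 TPM filter left 3 above and 1 below, since fewer members then enter. The difference of MMP2 in MDA-MB-231 was -0.05, and from -0.075 to 0.0041 when 1 library was left out; it turned positive without wild-type replicate 3. A pseudocount of 0.1 widened the differences of low members, that of MMP1 to -9.16. Human list tests were not run, as the identifiers have no names in the tables used. Read depth is unknown, so no counting error can be given for the members under 0.5 TPM.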
